A study of Mus musculus with 24 samples.

Results

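A set of 10 genes commonly read as marks of macrophage polarization were followed in the BURP mouse bladder tumor lines: Arg1, Nos2, Mrc1, Chil3, Retnla, Cd163, Trem2, Spp1, C1qa and Apoe. They were 10 of the 53465 genes in the count table, and all of them were found there. They were chosen for their level in each of the 24 tumors, and in particular for which of them carries the high summed level of M2-like genes seen in BURP-24BaSq. The levels of BURP-24BaSq against the other lines are therefore given as a description, with no test.

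The BURP lines were made by giving C57BL/6NTac mice, 8 weeks old at the start, the bladder carcinogen BBN (a nitrosamine) at 0.1% in their drinking water for up to 36 weeks, and by passaging the bladder tumors under the skin of hosts of the same strain and sex. All lines share this carcinogen, strain and site, and the hosts kept an intact immune system, so host macrophages could enter every tumor. Total RNA of 24 tumors was sequenced after removal of ribosomal RNA, with 3 tumors from each of 8 lines. Of the 8 lines 6 are basal/squamous (Ba/Sq), of which BURP-18BaSq, BURP-17BaSq and BURP-12BaSq came from males and BURP-25BaSq, BURP-24BaSq and BURP-21BaSq from females. The stroma-rich line BURP-16SR and the neuroendocrine-like line BURP-19NE came from males. The labels name no drug given to the sequenced tumors. The stroma-rich and the neuroendocrine-like subtype are each held by 1 line, so that subtype and line cannot be told apart there, and 3 tumors of 1 line are replicates of that line only.

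Macrophages take different states according to the signals they meet. Interferon gamma and microbial products favor a state often called M1-like, in which Nos2 makes nitric oxide from arginine. Il4 and Il13, acting through Stat6, favor an M2-like state, in which Arg1 breaks down the same amino acid and the mannose receptor Mrc1, the chitinase-like protein Chil3 and the resistin-like protein Retnla are found. The hemoglobin scavenger receptor Cd163 is also commonly read as M2-like. Tumor macrophages are often described by another group of genes: the lipid receptor Trem2, the secreted phosphoprotein osteopontin (Spp1), the complement subunit C1qa and the lipid carrier Apoe. Several of the 10 are also expressed outside macrophages, Arg1 in hepatocytes and keratinocytes, Spp1 in bone and epithelia and Apoe in hepatocytes and adipocytes.

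Levels are in CPM, the counts divided by the size of the library, scaled with the TMM factors of edgeR. The deposited totals ran from 9295747 to 25370356 counts per tumor with a median of 17693198, and the level that 3 counts would give, used here as the floor, lay between 0.106 and 1.34 CPM. The highest floor belonged to BURP-25BaSq tumor C102-M30, where 1 ribosomal RNA gene held 61.9% of the counts and 3725763 counts were left for all other genes. BURP-25BaSq tumor C102-M1 stood apart from its label: over 21383 genes its mean Pearson r with the other tumors of BURP-25BaSq was 0.892, against 0.968 with BURP-21BaSq, while 21 of the 24 tumors were closest to their own line. The other two were near ties, BURP-25BaSq C102-M3 with 0.913 to its own line and 0.915 to BURP-12BaSq, and BURP-17BaSq C165-M30 with 0.925 to its own line and 0.925 to BURP-24BaSq. Krt5, a keratin of basal epithelium, lay between 2950 and 6053 CPM in every Ba/Sq tumor and at most 0.339 CPM in BURP-16SR and BURP-19NE. Macrophages were read from a list of 18 markers. Csf1r, the receptor for macrophage growth factor, ran from 3.43 to 130.9 CPM and Adgre1, which encodes F4/80, from 0.257 to 30.4 CPM, so that macrophage transcripts were found in all 24 tumors. In bulk RNA, fewer macrophages and less RNA per macrophage cannot be told apart.

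The M2-like sum of BURP-24BaSq was almost entirely Arg1. Summed over Arg1, Mrc1, Chil3, Retnla and Cd163, BURP-24BaSq reached 1760 ± 459.5 CPM (SD, n = 3), the first of the 8 lines. Arg1 gave 98.71% of that sum in C81-M1, 98.72% in C81-M30 and 98.25% in P2. Dividing each gene by its exon length left Arg1 at 99.45%, 99.23% and 99.25% of the sum. Without Arg1 the other 4 genes added up to 24.6 ± 2.62 CPM (SD, n = 3) in BURP-24BaSq, which gave the line rank 6 of 8. A high share of Arg1 was not particular to this line. The mean share in CPM was 97.32% in BURP-12BaSq, 92.95% in BURP-21BaSq, 87.31% in BURP-17BaSq, 84.64% in BURP-25BaSq and 55.14% in BURP-18BaSq. It was 58.21% in BURP-16SR and 6.088% in BURP-19NE. BURP-24BaSq had the highest mean level of Arg1. Its tumors overlapped with BURP-17BaSq, where C165-M30 had 1901 CPM of Arg1 against 1208 CPM in BURP-24BaSq P2.

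Set against the mean of the other 7 lines, BURP-24BaSq differed by 1437 CPM in Arg1, and the remaining 4 genes of the sum lay below that mean. Mrc1 was at 19.5 against 42.9 CPM, Cd163 was at 3.50 against 8.11 CPM, Chil3 at 0.939 against 3.84 CPM and Retnla at 0.642 against 2.76 CPM. Arg1 alone therefore made up 102.4% of the difference in the sum. Against the median of the 7 line means, which a few high tumors move less, BURP-24BaSq had 9.3 times the Arg1, 1.209 times the Cd163, 0.717 times the Retnla, 0.683 times the Mrc1 and 0.393 times the Chil3. The members outside the sum showed no such gap: C1qa was at 50.3 against 46.4 CPM, Trem2 at 4.2 against 3.62 CPM, Nos2 at 5.35 against 4.90 CPM and Apoe at 197.8 against 210.1 CPM, while Spp1 was at 59.1 against 123.6 CPM but 1.121 times the median of the 7 lines.

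**Figure D1:**
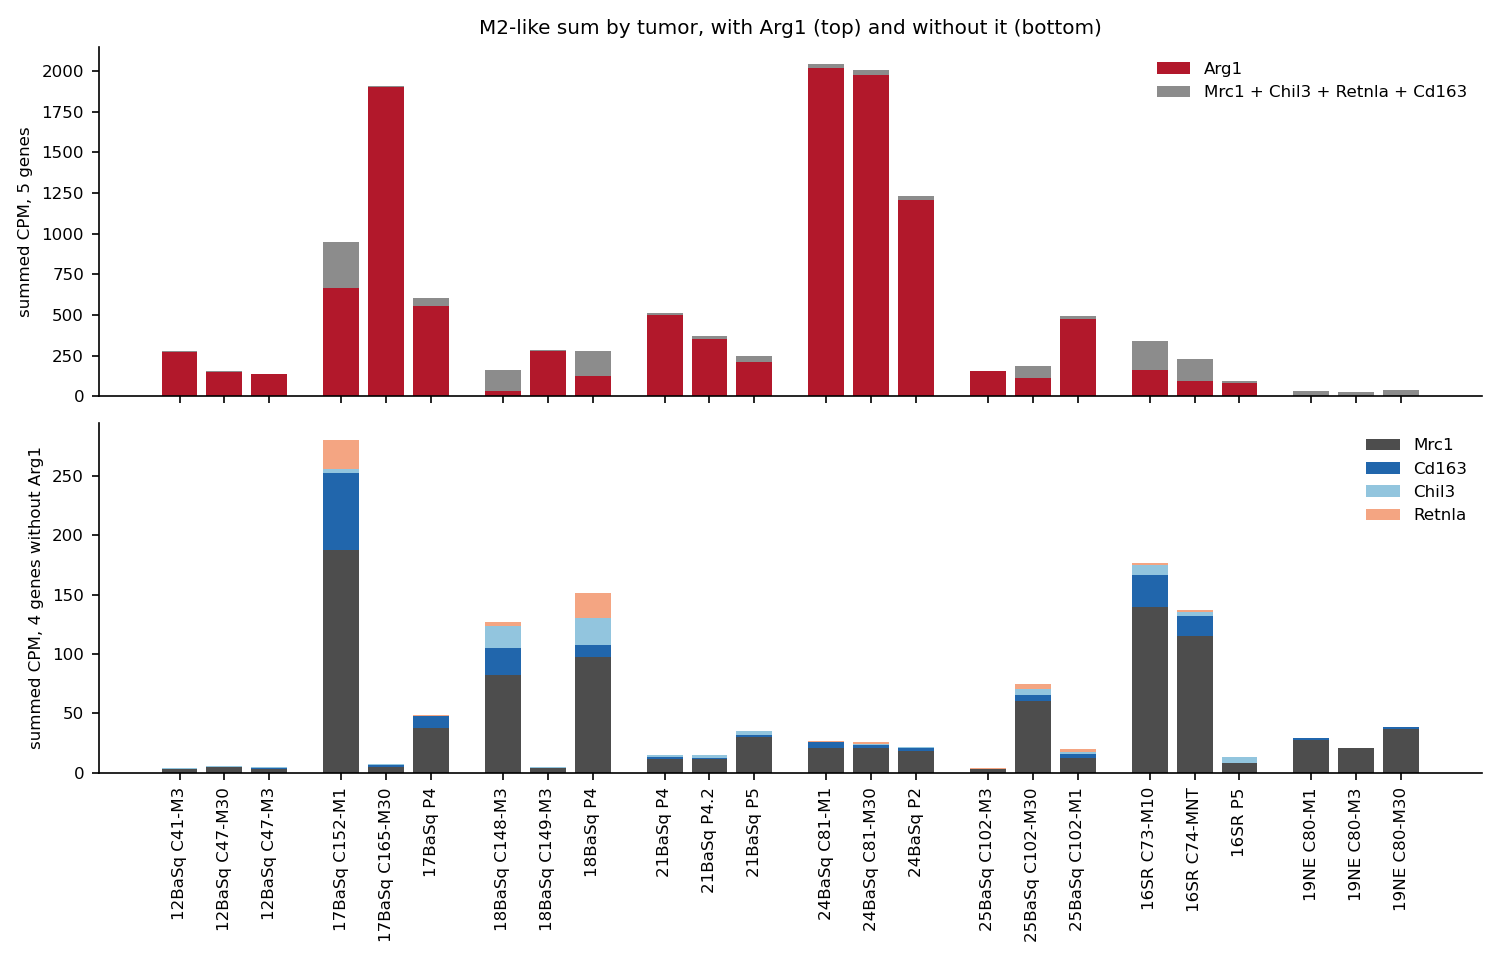
Summed CPM of the M2-like genes in each of the 24 tumors (1 bar a tumor, grouped by line). The upper panel stacks Arg1 and the other 4 genes, and the lower panel shows those 4 genes alone on a smaller scale. The 3 BURP-24BaSq tumors and BURP-17BaSq C165-M30 lie between 1230 and 2046 CPM in the upper panel almost wholly through Arg1, and BURP-24BaSq lies between 21.58 and 26.45 CPM in the lower one.

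Arg1, the cytosolic arginase that turns arginine into ornithine and urea, had the widest spread between lines of the 10 genes. The gene (ENSMUSG00000019987.9) lies on the minus strand of chromosome 10 at chr10:24915221-24927484 of GRCm38. In BURP-24BaSq it measured 2020 CPM in C81-M1, 1979 CPM in C81-M30 and 1208 CPM in P2. BURP-17BaSq came next with 666 CPM in C152-M1, 1901 CPM in C165-M30 and 557 CPM in P4. Of the 21 tumors of other lines, C165-M30 was the 1 above the lowest BURP-24BaSq tumor, and it is also the tumor whose RNA was as close to BURP-24BaSq as to its own line.

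The remaining Ba/Sq lines held Arg1 at 355 ± 144 CPM in BURP-21BaSq, 246 ± 198 CPM in BURP-25BaSq, 187 ± 76.7 CPM in BURP-12BaSq and 147 ± 124 CPM in BURP-18BaSq (SD, n = 3 each). BURP-16SR had 163, 92.3 and 82.6 CPM in C73-M10, C74-MNT and P5. BURP-19NE had 1.47, 2.63 and 0.908 CPM in C80-M1, C80-M3 and C80-M30, from 20 to 50 counts a tumor. In this order of lines, neighbors overlapped except at the step from BURP-17BaSq to BURP-21BaSq and at the step from BURP-16SR to BURP-19NE. Arg2, the mitochondrial arginase, lay between 0.350 and 2.36 CPM in all 24 tumors.

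Arg1 was next set against macrophage transcripts. Across the 24 tumors its log2 level had a Pearson r of 0.028 and a Spearman rho of 0.062 with the log2 of the summed 18 macrophage markers, a description over tumors that share lines. For every 100 CPM of the macrophage sum, Arg1 ran from 0.204 CPM in BURP-19NE C80-M30 to 1209 CPM in BURP-17BaSq C165-M30. That last tumor had the lowest macrophage sum of all, 157 CPM, with Csf1r at 8.90 CPM and Adgre1 at 1.09 CPM, beside 1901 CPM of Arg1. In BURP-24BaSq the macrophage sum was 444, 481 and 762 CPM in C81-M1, C81-M30 and P2, inside the 157 to 1110 CPM of the 18 Ba/Sq tumors, and P2 had the most macrophage RNA and the least Arg1 of the 3.

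Arg1 was also set against markers of other cell types. Within the 18 Ba/Sq tumors its r was 0.688 (rho 0.664) with the summed 12 basal and squamous epithelial markers, 0.46 (rho 0.307) with the 13 neutrophil markers, 0.219 (rho 0.329) with the 10 fibroblast markers and 0.061 (rho 0.075) with the macrophage markers. These values are a description over tumors that share lines. They include the 3 tumors of BURP-24BaSq, whose Arg1 was used in choosing the genes and whose mean epithelial sum, 21640 CPM, was the highest of the lines. They were not worked out without that line. The epithelial sum ran from 9658 to 23740 CPM in Ba/Sq tumors and was 23450, 17730 and 23740 CPM in BURP-24BaSq C81-M1, C81-M30 and P2. The neutrophil sum, in which Ltf, also expressed by epithelia, was the leading gene (291.8 CPM on average over lines), ran from 44.9 to 1258 CPM in Ba/Sq tumors and was 230, 979 and 259 CPM in the same 3 tumors. In BURP-19NE the epithelial sum was 4.27 to 7.11 CPM and the neutrophil sum 2.06 to 4.50 CPM. The part of these cell types in the Arg1 levels was not tested.

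**Figure D2:**
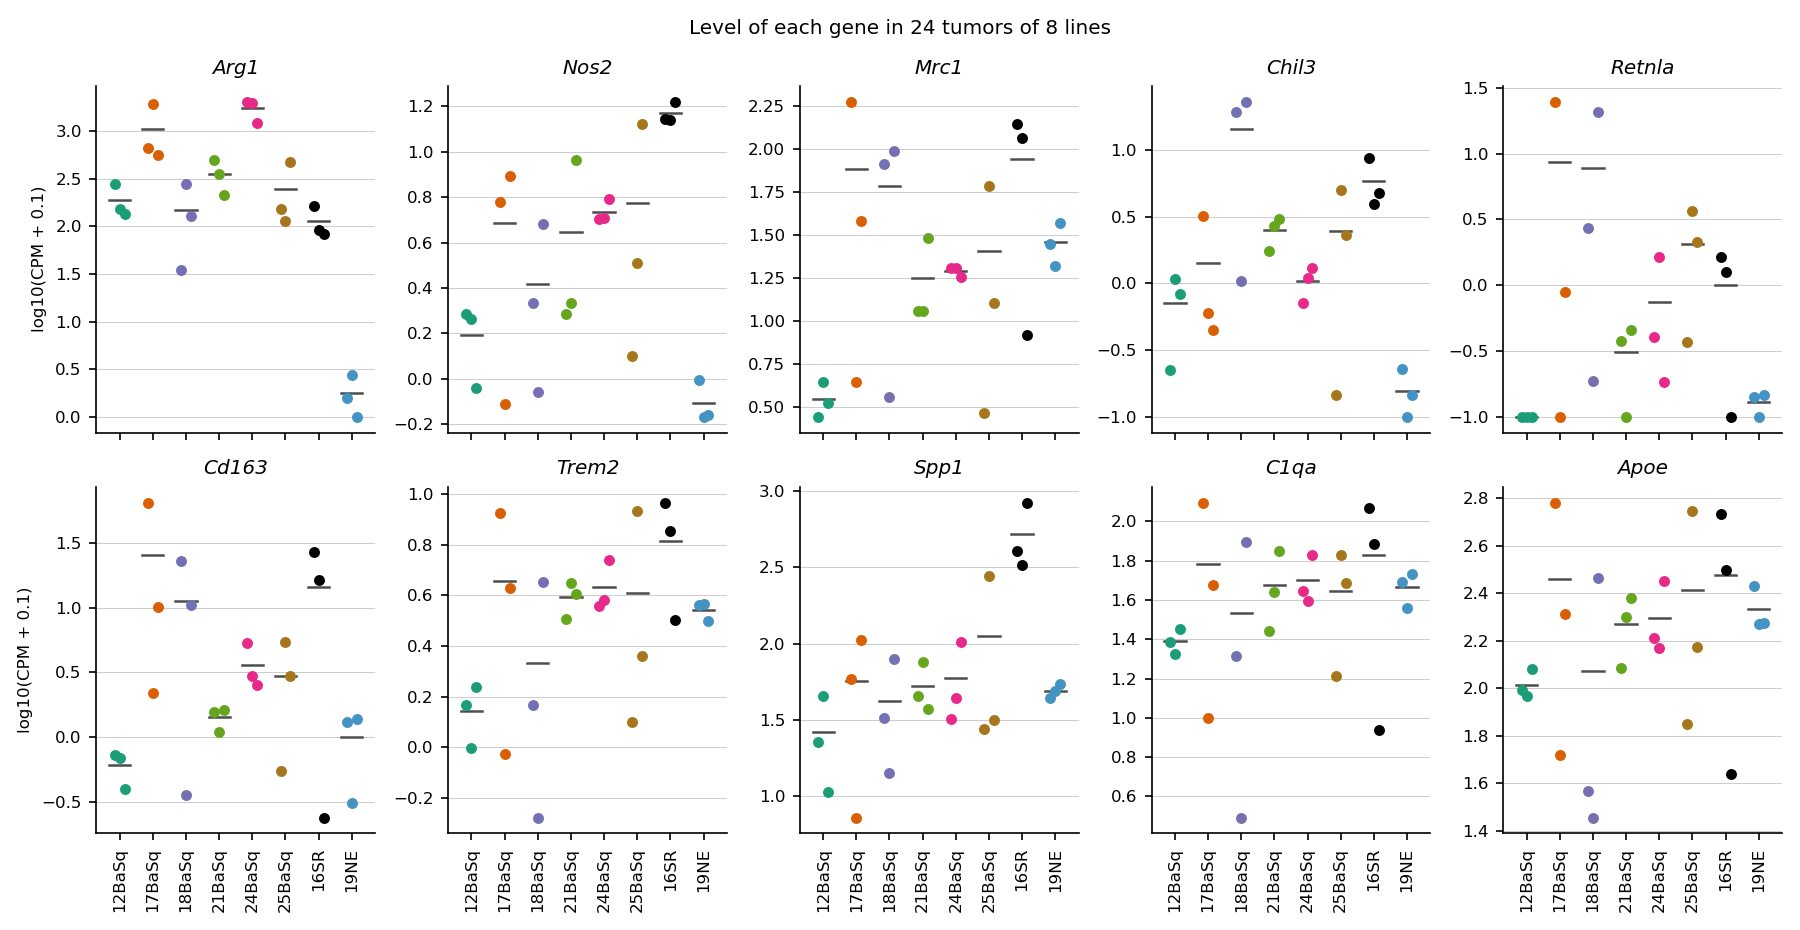
Level of each of the 10 genes as log10(CPM + 0.1), with 1 point a tumor and a short line at the mean CPM of the 3 tumors. Vertical scales differ between panels. Arg1 is highest in BURP-24BaSq and lowest in BURP-19NE, Spp1 and Nos2 are highest in BURP-16SR, and the 3 tumors of BURP-17BaSq, BURP-18BaSq and BURP-25BaSq lie far apart for most of the other genes.

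Mrc1, Cd163 and Retnla, the surface receptors and the secreted protein of the M2-like set, were led by other tumors. Mrc1, a receptor that takes up mannose-bearing glycoproteins (chr2:14229392-14332057, plus strand), was highest in BURP-17BaSq C152-M1 with 188 CPM, while its line mates C165-M30 and P4 had 4.28 and 37.8 CPM. BURP-16SR had 139.5, 115.6 and 8.18 CPM in C73-M10, C74-MNT and P5. BURP-18BaSq had 82.0, 3.52 and 97.4 CPM in C148-M3, C149-M3 and P4. In each of these lines 1 tumor was far below its highest line mate. BURP-24BaSq was even, with 20.3, 20.3 and 17.9 CPM, and BURP-12BaSq was lowest with 2.67, 4.29 and 3.22 CPM.

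Cd163, which clears hemoglobin bound to haptoglobin (chr6:124304656-124330527, plus strand), followed the same tumors. It measured 64.7 CPM in BURP-17BaSq C152-M1, 26.9 and 16.2 CPM in BURP-16SR C73-M10 and C74-MNT and 22.8 CPM in BURP-18BaSq C148-M3. The remaining BURP-16SR tumor, P5, had 0.140 CPM from 2 counts. BURP-24BaSq had 5.20, 2.86 and 2.44 CPM. The Pearson r of Cd163 and Mrc1 on the log2 scale was 0.838 over the 24 tumors, the highest of Mrc1 with any member.

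Retnla, a secreted protein of alternatively activated macrophages and adipose tissue (chr16:48842551-48844461, plus strand), was counted in 17 of the 24 tumors and reached 3 counts in 13. BURP-17BaSq C152-M1 had 24.7 CPM and BURP-18BaSq P4 had 20.5 CPM, and no other tumor exceeded 3.58 CPM. All 3 BURP-12BaSq tumors had 0 counts, which allows up to 0.111 to 0.127 CPM. BURP-24BaSq had 0.306, 1.54 and 0.083 CPM in C81-M1, C81-M30 and P2, from 6, 29 and 2 counts. Adipocyte markers were also highest in C152-M1, with a summed 528.5 CPM over 10 genes against 19.75 to 259 CPM in the other Ba/Sq tumors, and BURP-18BaSq P4 had 153 CPM. The part of fat tissue in the Retnla counts was not tested.

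Chil3, a chitinase-like protein of macrophages that binds sugars without cutting chitin (chr3:106147554-106167564, minus strand), has a close neighbor, Chil4 (chr3:106201490-106219507, minus strand). The coding sequences, taken as the longest open reading frame of the GENCODE transcript, were 95.3% identical, with 1141 of 1197 aligned bases the same and 56 different. The stretch with the most differences is shown because it is where reads can be told apart, with the differing bases in capitals (coding bases 827 to 916 of both genes):
Chil3: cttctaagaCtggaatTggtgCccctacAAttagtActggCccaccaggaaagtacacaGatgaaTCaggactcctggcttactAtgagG
Chil4: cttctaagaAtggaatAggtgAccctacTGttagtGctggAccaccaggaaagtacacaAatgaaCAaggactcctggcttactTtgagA
A stretch of the same length, coding bases 362 to 451, had no difference, so that reads inside it could belong to either gene:
Chil3 and Chil4: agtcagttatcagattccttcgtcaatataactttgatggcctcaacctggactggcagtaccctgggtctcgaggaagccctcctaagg
Of the 50-base windows of the Chil3 coding sequence, 20.6% were also found whole in Chil4, and of the 100-base windows 4.92%.

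Chil3 was highest in BURP-18BaSq, with 19.2, 0.944 and 22.9 CPM in C148-M3, C149-M3 and P4. Chil4 in the same 3 tumors measured 2113, 441 and 134.6 CPM, and in no tumor of another line did it exceed 1.93 CPM. The order of the 3 tumors differed between the genes: C149-M3 had the second highest Chil4 and a Chil3 level near 1 CPM. The Chil3 counts of 5 of the 23 tumors that had any were not whole numbers, as happens when the counting program divides reads between genes. Chil3 levels in BURP-18BaSq are therefore uncertain. Outside that line Chil3 was highest in BURP-16SR, with 8.65, 3.87 and 4.69 CPM in C73-M10, C74-MNT and P5, and BURP-19NE had 3, 0 and 1 counts.

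**Figure D3:**
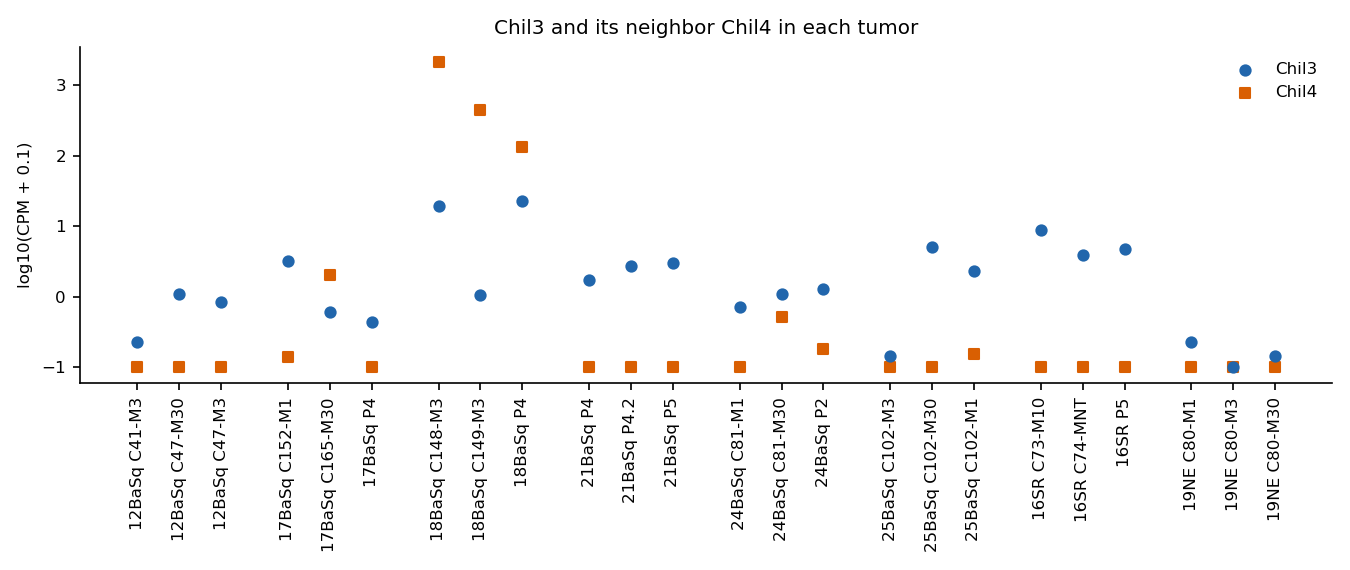
Chil3 (circles) and Chil4 (squares) in each tumor as log10(CPM + 0.1). Points at −1 are 0 counts. Chil4 is above Chil3 in the 3 BURP-18BaSq tumors (134.6 to 2113 against 0.944 to 22.9 CPM) and in BURP-17BaSq C165-M30, and is at or near 0 elsewhere.

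The promoter windows of Chil3, Chil4 and Retnla are shown because several of the M2-like genes are textbook targets of Stat6. Each runs from 250 bases before to 50 bases after the start site in RefSeq on GRCm38.p6, read 5′ to 3′ on the strand of the gene, and capitals mark matches to a searched motif. The windows are chr3:106167515-106167814 (Chil3, minus strand), chr3:106219430-106219729 (Chil4, minus strand) and chr16:48842359-48842658 (Retnla, plus strand).
Chil3: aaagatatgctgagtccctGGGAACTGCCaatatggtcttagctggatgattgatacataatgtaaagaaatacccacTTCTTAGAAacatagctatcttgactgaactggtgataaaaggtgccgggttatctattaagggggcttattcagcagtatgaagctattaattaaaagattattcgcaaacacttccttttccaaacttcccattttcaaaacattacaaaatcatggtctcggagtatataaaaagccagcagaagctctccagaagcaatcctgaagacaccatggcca
Chil4: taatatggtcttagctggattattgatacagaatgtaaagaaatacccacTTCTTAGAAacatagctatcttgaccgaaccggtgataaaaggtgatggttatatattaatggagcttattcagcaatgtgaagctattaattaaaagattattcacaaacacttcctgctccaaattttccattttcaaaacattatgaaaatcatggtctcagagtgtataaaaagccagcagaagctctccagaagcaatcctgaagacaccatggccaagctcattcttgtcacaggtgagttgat
Retnla: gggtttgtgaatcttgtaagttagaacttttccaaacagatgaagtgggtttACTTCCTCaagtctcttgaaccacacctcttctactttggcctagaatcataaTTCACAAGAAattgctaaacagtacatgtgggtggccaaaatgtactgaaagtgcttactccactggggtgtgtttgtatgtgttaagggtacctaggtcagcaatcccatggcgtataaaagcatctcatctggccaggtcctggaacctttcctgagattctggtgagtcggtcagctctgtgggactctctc
Motifs were searched on both strands. The Stat6 form TTCNNNNGAA, in which N is any base, matched in Retnla at −145 from the start and in 6.95% of 32851 promoters. The related form TTCNNNGAA matched in both Chil3 and Chil4, with the same letters TTCTTAGAA at −172 and −200 from the start, and in 8.30% of promoters. The NF-kB form GGGANNNNCC matched in Chil3, Mrc1, Cd163 and Apoe and in 20.7% of promoters. The PU.1 form GAGGAAGT matched in Retnla, on the other strand, and in Spp1, and in 3.20% of promoters, and the AP-1 form TGANTCA matched in Trem2 and in 7.81% of promoters. RefSeq windows were found for 7 of the 10 genes. Arg1, Nos2 and C1qa had none, so their promoters were not searched for any motif.

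Nos2, the inducible nitric oxide synthase (chr11:78920787-78960254, plus strand), was the single M1-like member. BURP-16SR held it evenly, with 13.9, 13.7 and 16.5 CPM in C73-M10, C74-MNT and P5, above all other tumors. The nearest was C102-M1, labelled BURP-25BaSq, with 13.2 CPM, while C102-M3 and C102-M30 of that line had 1.16 CPM and 3.13 CPM (7 counts). BURP-24BaSq, with rank 3 of the lines, had 4.94, 4.98 and 6.12 CPM, and BURP-19NE was lowest with 0.884, 0.580 and 0.590 CPM. Nos2 correlated with the macrophage sum with r = 0.628 over 24 tumors and 0.777 within the 18 Ba/Sq tumors, a description over tumors that share lines. Nos2 and Arg1 use the same substrate, and their log2 levels had r = 0.41 over the 24 tumors, of which the 3 of BURP-19NE were low in both.

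C1qa, Apoe and Trem2 were the members whose levels followed macrophage transcripts most closely. C1qa encodes a chain of the complement protein C1q (chr4:136895917-136898803, minus strand) and had r = 0.895 with the macrophage sum, as did Apoe (chr7:19696109-19699188, minus strand), and Trem2 (chr17:48346401-48354147, plus strand) had r = 0.896, over 24 tumors. Dividing C1qa by the macrophage sum reduced the SD of its log2 level over the tumors from 1.24 to 0.648, that of Trem2 from 1.09 to 0.52 and that of Apoe from 1.202 to 0.614, while that of Arg1 went from 2.97 to 3.04. These genes and the list share libraries and come from the same RNA. Lyz2, Ctss and Lgmn held 20.8, 16.6 and 12.1% of the macrophage sum, and some genes of the list are also expressed by other cells.

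The level of C1qa ran from 3.003 CPM in BURP-18BaSq C149-M3 to 124.8 CPM in BURP-17BaSq C152-M1. In BURP-24BaSq it was 44.0, 39.3 and 67.5 CPM and in BURP-19NE 48.9, 36.3 and 54.1 CPM, so that the lines with the highest and the lowest Arg1 overlapped in C1qa. Trem2, a receptor for lipids and apolipoproteins, ran from 0.429 CPM in C149-M3 to 9.15 CPM in BURP-16SR C73-M10. Apoe, which carries cholesterol between cells, ran from 28.4 CPM in C149-M3 to 606 CPM in C152-M1. In the order of lines by mean level, no neighbors were apart for C1qa, Apoe or Trem2. The median over tumors per kilobase of exon was 83.9 CPM for Arg1, 81.6 for Apoe, 42.0 for C1qa and 27.6 for Spp1, against 3.19 for Mrc1, 0.713 for Trem2, 0.676 for Chil3, 0.589 for Nos2, 0.453 for Retnla and 0.332 for Cd163.

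**Figure D4:**
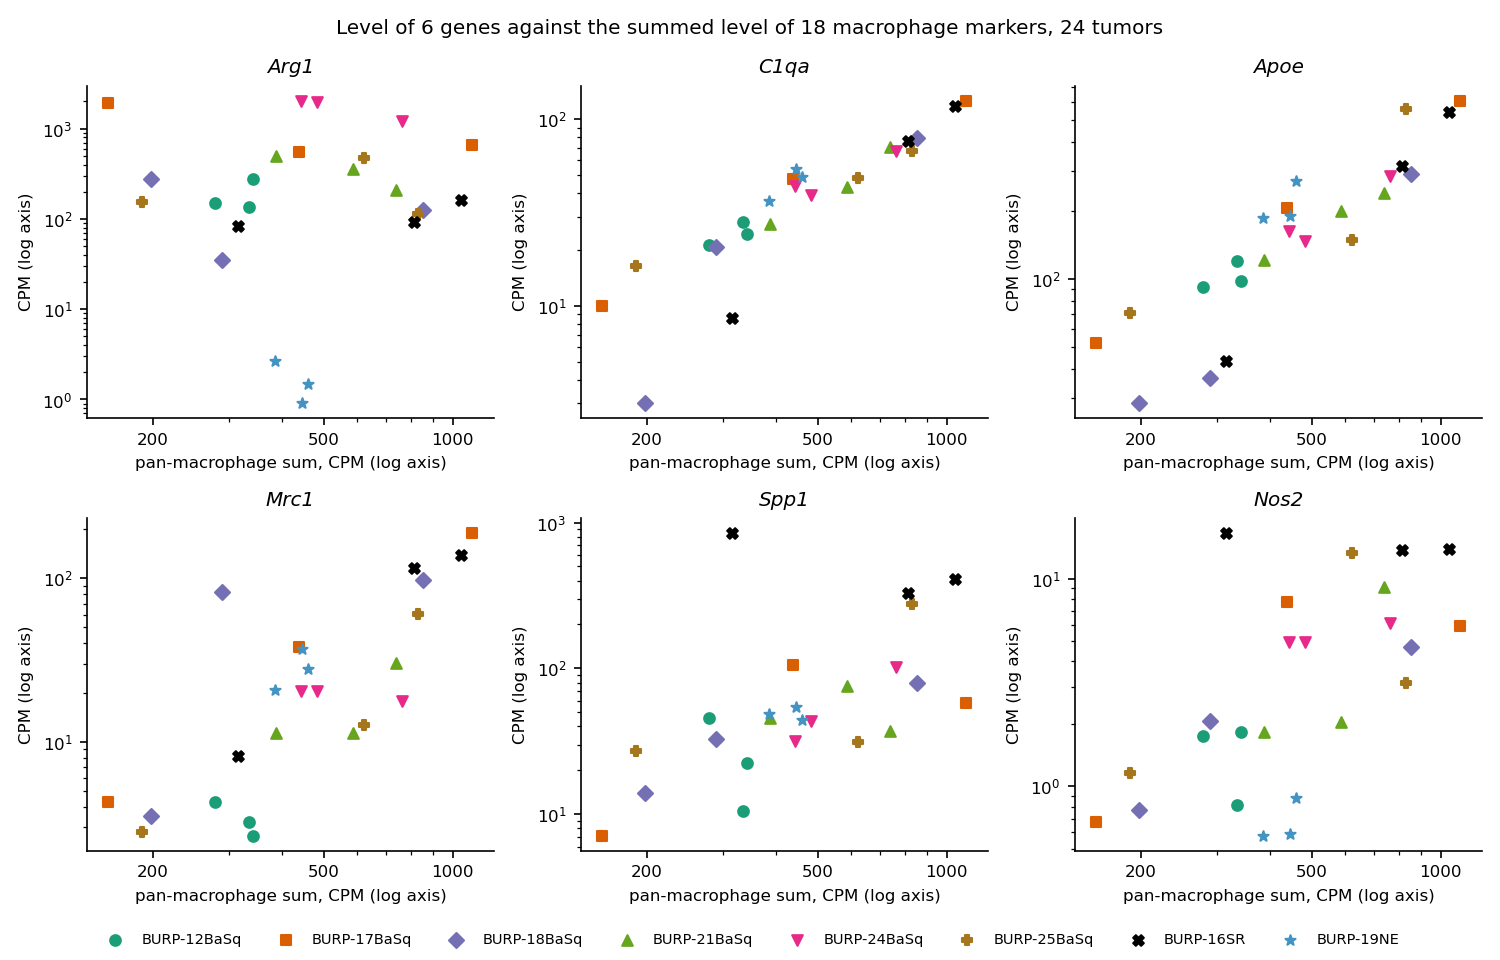
Level of 6 of the genes against the summed level of 18 macrophage markers, both in CPM on log axes, with 1 point for each of the 24 tumors and a color and shape for each line. C1qa and Apoe lie along a rising band (r = 0.895 each), Arg1 does not (r = 0.028), and Spp1 in BURP-16SR P5 stands above all others at a macrophage sum of 315 CPM.

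Spp1 encodes osteopontin, a secreted ligand of integrins and Cd44 (chr5:104435118-104441050, plus strand). BURP-16SR had 407, 328 and 842 CPM in C73-M10, C74-MNT and P5. All 21 other tumors were lower, the highest being BURP-25BaSq C102-M30 with 278 CPM from 622 counts and BURP-17BaSq P4 with 105.7 CPM. P5, the tumor with the highest Spp1, was the lowest of the BURP-16SR tumors in several other genes and the highest in Nos2: Mrc1 was 8.18 CPM, C1qa 8.60 CPM, Apoe 43.4 CPM and Csf1r 20.6 CPM, against 110.5 and 95.6 CPM of Csf1r in C73-M10 and C74-MNT. Per 100 CPM of macrophage sum, Spp1 was 267 CPM in P5, 38.8 and 40.2 CPM in the other two BURP-16SR tumors and 3.15 to 33.5 CPM in all tumors of other lines. BURP-24BaSq had 31.9, 43.7 and 101.7 CPM, rank 3 of the lines. An overlapping annotated transcript on the same strand, Gm42793, reached at most 7.21 CPM.

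Differences between lines were then tested over all genes with edgeR's quasi-likelihood test, and genes that changed by more than 2-fold with an adjusted p (Benjamini-Hochberg) under 0.05 were called. In BURP-19NE against the 18 Ba/Sq tumors 3 of the 10 members were called, all lower, where 24.3% of 20995 genes were called and 15% were lower. Arg1 fell by 8.51 ± 1.55 on the log2 scale (SE, adjusted p = 0.000251), from 34.7 to 2020 CPM in Ba/Sq tumors, with a median of 317 CPM, to 0.908 to 2.63 CPM, with no overlap. Nos2 (log2 fold change −2.54 ± 0.875, adjusted p = 0.0291) and Chil3 (−5.77 ± 1.93, 0.0255) fell too, and both overlapped with the lowest Ba/Sq tumors. Retnla (log2 fold change −6.44 ± 2.93, adjusted p = 0.0954) and Cd163 (−3.02 ± 1.61, 0.154) did not pass, though DESeq2 called Retnla (−4.52, adjusted p = 0.0281).

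None of the 5 other members passed in this contrast. Mrc1 was at 28.5 ± 8.14 against 33.9 ± 47.6 CPM, C1qa at 46.5 ± 9.15 against 43.5 ± 29.9 CPM, Trem2 at 3.39 ± 0.3005 against 3.29 ± 2.38 CPM, Apoe at 214.6 ± 47.4 against 192 ± 162 CPM and Spp1 at 49.2 ± 5.31 against 58.2 ± 62.0 CPM (SD, n = 3 and n = 18). Their log2 fold changes lay between −0.234 and 0.17 with SE of 0.615 to 1.06. Since BURP-24BaSq was among the Ba/Sq tumors and had been used in choosing the genes, the contrast was repeated without its 3 tumors, and Arg1 (−7.90, adjusted p = 0.000204), Nos2 (−2.48, 0.0487) and Chil3 (−6.00, 0.0277) were called again. The calls of Nos2 and Chil3 did not hold when any 1 of the BURP-19NE tumors was left out, with adjusted p of 0.0739 to 0.108 for Nos2 and 0.0659 to 0.104 for Chil3.

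In BURP-16SR against Ba/Sq 2 of 10 members were called, both higher, where 19.2% of 21028 genes were called and 10.5% were higher. Spp1 was higher by 3.25 ± 0.579 (log2 fold change and SE, adjusted p = 0.000292), at 525.7 ± 277 against 58.2 ± 62.0 CPM (SD, n = 3 and n = 18), with no overlap. Nos2 was higher by 1.91 ± 0.602 (adjusted p = 0.0235), at 14.7 ± 1.57 against 4.04 ± 3.41 CPM, with no overlap. Without the BURP-24BaSq tumors the values were 3.26 (adjusted p = 0.00116) for Spp1 and 2.02 (0.0337) for Nos2. Without any 1 of the BURP-16SR tumors the call of Nos2 was lost, with adjusted p of 0.0642 to 0.101. Arg1 had a log2 fold change of −2.39 ± 1.07 and was not called (adjusted p = 0.108), though DESeq2 called it at −2.39 (adjusted p = 0.0178). Both fits held the BURP-24BaSq tumors, whose Arg1 was used in choosing the genes. Without them edgeR gave Arg1 −1.73 (adjusted p = 0.167), and DESeq2 was not run without them.

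Other cell types differed in BURP-16SR too. Of the tested fibroblast markers 5 of 10 were higher than in Ba/Sq, and of the endothelial markers 5 of 8, with median log2 fold changes of 2.25 and 1.44 against −0.027 over all genes. Of all genes, 10.5% were called higher. The summed fibroblast markers were 7813, 20770 and 630 CPM in C73-M10, C74-MNT and P5, and the macrophage sums 1048, 814 and 315 CPM. P5, the tumor with the most Spp1, was thus lowest of the 3 in both. The part of either cell type in the Spp1 level was not tested. Among the 18 macrophage markers 2 were higher in BURP-16SR than in Ba/Sq, close to the share of 10.5% over all genes. They were Mertk (1.34, adjusted p = 0.00306) and Cd14 (1.53, adjusted p = 0.000489). With the macrophage score as a covariate, a fit added after seeing the data, Spp1 was at 3.62 (adjusted p = 4.22e-05) and Nos2 at 2.19 (0.00189).

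Between BURP-16SR and BURP-19NE, which uses no Ba/Sq tumor, 4 of 9 tested members were called, all higher in BURP-16SR, where 23.6% of 17556 genes were called and 14.8% were higher. They were Arg1 (log2 fold change 6.18 ± 0.519, adjusted p = 0.000914), Nos2 (4.50 ± 0.275, 0.000441), Chil3 (6.50 ± 0.757, 0.00203) and Spp1 (3.49 ± 0.366, 0.00153), and in each the 3 tumors of BURP-16SR were above the 3 of BURP-19NE. Retnla did not pass the filter on low counts (4.62, adjusted p = 0.0499, with no filter). Mrc1 (1.74 ± 0.888, adjusted p = 0.17) and Cd163 (4.10 ± 1.47, 0.0717) overlapped and were not called, though DESeq2 called Cd163 (4.08, adjusted p = 0.00313). Leaving out BURP-16SR P5 brought the number called to 10 of 10, adding Mrc1 (2.24, adjusted p = 0.00226), Cd163 (4.62, 0.0034), Trem2 (1.33, 0.00808), C1qa (1.14, 0.0147), Apoe (1.08, 0.0261) and Retnla (5.24, 0.00294). In these genes P5 was the lowest of the 3 BURP-16SR tumors. The share of 23.6% belongs to the fit with P5, in which 4147 genes were called. Without P5, 18683 genes were tested and at most 5545 of them called, the highest count with 1 tumor left out. The exact share in that fit is not given here, and P5 was the tumor low in these genes. The 10 of 10 is therefore not read as a result about the members. Leaving out 1 tumor at a time gave 2845 to 5545 genes called in this contrast, so calls over all genes moved as well.

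**Figure D5:**
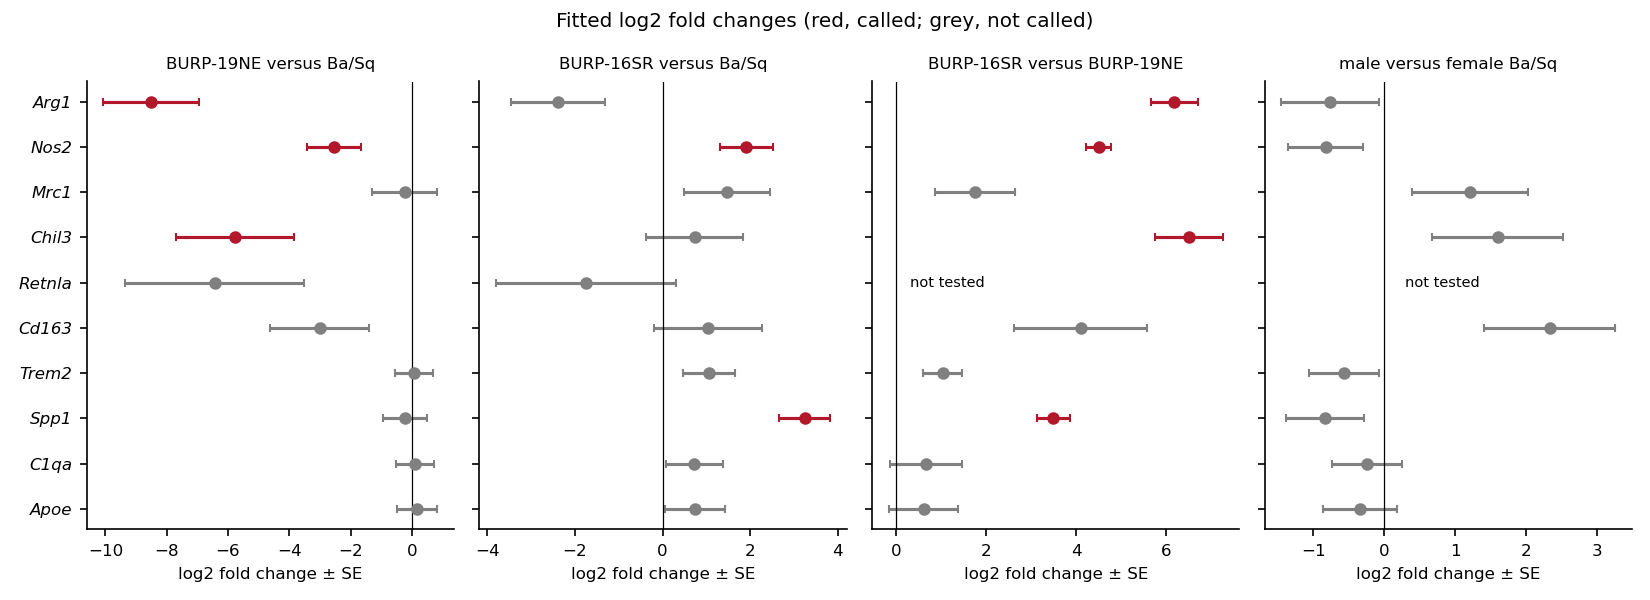
Log2 fold change with its SE for each member in 4 contrasts (first group relative to the second), red where called and grey where not. Horizontal scales differ between panels. Arg1 is at −8.51 in BURP-19NE against Ba/Sq, Spp1 at 3.25 in BURP-16SR against Ba/Sq, and no member is called between the sexes.

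Between the 9 male and the 9 female Ba/Sq tumors edgeR called 0 of 9 tested members, and 1 had an unadjusted p under 0.05, where 2.31% of 17922 genes were called. That member was Cd163, at 12.4 ± 21.0 CPM in males and 2.58 ± 1.74 CPM in females (SD, n = 9 each; log2 fold change 2.34 ± 0.923, adjusted p = 0.134), and DESeq2 called it (2.31, adjusted p = 0.0408). Arg1 ran from 34.7 to 1901 CPM in males and from 112 to 2020 CPM in females (log2 fold change, male relative to female, −0.763 ± 0.686, adjusted p = 0.541). Without the line BURP-24BaSq this value turned to 0.561 (adjusted p = 0.707), and without BURP-17BaSq it was −2.21 (0.0473), so that 1 line of either sex set its direction or its call. Each sex is held by 3 lines, and with counts summed per line edgeR called 0 of 21658 genes, with 1388 genes and 0 members at an unadjusted p under 0.05 and no run of DESeq2.

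Among the 5 Ba/Sq lines other than BURP-24BaSq 3 of 10 members differed in an F test, where 37.2% of 20219 genes did. They were Arg1 (2.78 between the highest and the lowest fitted line on the log2 scale, adjusted p = 0.0305), Cd163 (5.67, 0.0227) and Chil3 (4.59, 0.0492). The Arg1 call was lost without BURP-17BaSq C165-M30 (adjusted p = 0.147) and without BURP-12BaSq C47-M30 (0.0618) or C47-M3 (0.0609). The Cd163 call was lost without BURP-17BaSq C152-M1 (0.0508) and without any 1 BURP-12BaSq tumor (0.0518 to 0.0595), and the Chil3 call without any 1 of 11 tumors (0.0531 to 0.158). Counting C102-M1 as BURP-21BaSq kept all 3 calls (adjusted p of 0.00651 for Arg1, 0.0167 for Cd163 and 0.0344 for Chil3). With the macrophage score as a covariate, added after seeing the data, 5 members were called, among them Mrc1 (4.53, 0.00373) and Retnla (9.36, 0.00382).

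The rest of each pathway was read from lists of known genes, each given by its calls and its median log2 fold change, beside the median of all genes (−0.141 in BURP-19NE against Ba/Sq, −0.027 in BURP-16SR against Ba/Sq and 0.06 between the 2 lines). Of all genes tested, 9.33% were called higher and 15% lower in BURP-19NE against Ba/Sq. The shares were 10.5% and 8.62% in BURP-16SR against Ba/Sq, and 14.8% and 8.86% in BURP-16SR against BURP-19NE. List counts near these shares are not read as results about a list. Of 16 tested genes of arginine metabolism, 7 were lower and 2 higher in BURP-19NE than in Ba/Sq, with a median of −0.98. Slc7a1, a main carrier of arginine into cells (log2 fold change −1.09, adjusted p = 0.0147), the arginine carrier Slc7a2 (−3.14, 0.0024) and the ornithine aminotransferase Oat (−1.25, 0.000197) fell, while the ornithine decarboxylase Odc1 did not pass (−0.868, adjusted p = 0.16). In BURP-16SR 4 of the 16 were higher than in Ba/Sq, with a median of 0.425, among them Slc7a2 (1.66, adjusted p = 0.0152) and the spermine synthase Sms (1.004, 0.00501). Sms was also higher in BURP-19NE than in Ba/Sq (1.15, adjusted p = 0.00118). Between BURP-16SR and BURP-19NE it was at −0.106 (0.637).

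Of 18 other M2-like genes tested, 5 were lower in BURP-19NE than in Ba/Sq (median −1.95), and 10 of 16 were higher in BURP-16SR than in BURP-19NE (median 2.91). Il4ra, the receptor chain for Il4 and Il13, fell by 2.24 in BURP-19NE (adjusted p = 0.0141), and Pdcd1lg2, the ligand PD-L2, fell by 2.73 in BURP-19NE (0.0361) and was higher by 2.52 in BURP-16SR (0.00579). Stat6 was at −0.789 in BURP-19NE and −0.565 in BURP-16SR, under the fold threshold. Of 17 other M1-like genes 8 were lower in BURP-19NE than in Ba/Sq (median −1.63), among them Socs3 (−3.25, adjusted p = 0.00123), and 1 was higher and 1 lower in BURP-16SR.

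The osteopontin receptors were higher with Spp1 in BURP-16SR for 3 of 9 genes (median 1.15). Cd44 was higher by 1.15 (adjusted p = 0.000306), Itga5 by 2.33 (2.12e-06) and Itgb3 by 2.14 (0.00114), and Cd44 fell by 1.34 in BURP-19NE (0.000158). Of the C1q partners and early complement genes, 3 of 10 were lower in BURP-19NE than in Ba/Sq (median −2.17), where C1ra fell by 3.71 (adjusted p = 0.0101), and edgeR called 0 of 10 in BURP-16SR (2 at an unadjusted p under 0.05 and 0 called by DESeq2). The partners C1qb and C1qc followed C1qa across the 24 tumors with r = 0.992 and 0.991. Of the lipid-associated macrophage genes, 3 of 14 were higher and 6 lower in BURP-19NE (median −1.38), among the latter Fabp5, also a keratinocyte gene (−8.02, 7.44e-07), and 3 of 15 were higher and 2 lower in BURP-16SR (median 0.289). Of the Apoe receptors and lipid exporters, 1 of 11 was higher and 3 lower in BURP-19NE (median −0.703) and 2 of 11 were higher in BURP-16SR (median 0.099), with Lrp1 higher in both (1.17 and 1.42, adjusted p = 0.00682 and 0.0022).

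Of the Il4, Il13 and Csf ligands and receptors, 6 of 14 were lower and 1 higher in BURP-19NE (median −1.68), and 4 of 15 were higher and 1 lower in BURP-16SR (median 0.255). Il13ra1 fell by 1.04 in BURP-19NE (adjusted p = 0.0457) and by 2.14 in BURP-16SR (0.00325). Of the chitinase-like, resistin-like and scavenger paralogs, 3 of 7 were lower in BURP-19NE (median −3.47) and 3 were higher and 1 lower in BURP-16SR (median 1.04). Of the macrophage markers 2 of 18 were higher and 1 lower in BURP-19NE (median −0.236), with Mertk among the first (1.97, adjusted p = 3.32e-05). The count of 2 higher is near the share of 9.33% over all genes.

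Lists for other cell types were read in the same way, beside the same shares and medians over all genes. In BURP-19NE 7 of 8 neutrophil markers were lower (median −4.82), all 12 basal and squamous markers were lower (median −13.1), 7 of 8 skeletal muscle markers were higher (median 4.73, with a summed level of 650.9 CPM in C80-M1 but 2.899 CPM in C80-M3 and 7.762 CPM in C80-M30, against 0.534 to 53.97 CPM in Ba/Sq tumors), 4 of 7 mast cell and eosinophil markers were higher and 1 lower (median 2.44, summed level 25.84, 3.162 and 35.13 CPM in the same tumors), 2 of 7 adipocyte markers were lower (median −5.35), 1 of 7 monocyte markers was higher and 2 lower (median −1.55), 1 of 8 endothelial markers was lower (median −0.672) and edgeR called 0 of 10 fibroblast markers (median −0.997, 0 at an unadjusted p under 0.05 and 2 called by DESeq2). In BURP-16SR all 12 basal and squamous markers were lower (median −12.6), 3 of 7 monocyte markers and 4 of 7 mast cell and eosinophil markers were higher (medians 1.798 and 2.49), 2 of 8 skeletal muscle markers were higher (median 2.93, summed level 175.5 CPM in C74-MNT but 8.986 CPM in C73-M10 and 8.534 CPM in P5), 1 of 8 neutrophil markers was higher and 1 lower (median −0.389) and edgeR called 0 of 8 adipocyte markers (median 0.991, 0 at an unadjusted p under 0.05 and 2 called by DESeq2). For the skeletal muscle markers the tools disagreed: DESeq2 called 0 of 8 in BURP-19NE and 1 of 8 in BURP-16SR. The part of all these cell types in the levels of the 10 genes was not tested.

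The genes whose log2 levels were most like each member over the 24 tumors differed between members, by Pearson r and as a description, since the tumors share lines. Nearest to Arg1 were Nhsl1 (0.956), Ablim1 (0.955) and Gm14137 (0.955), and to Nos2 Tnfrsf9 (0.905), Kif1a (0.896) and Cd300lf (0.892). For Mrc1 they were Lmo2 (0.911), Fcgrt (0.901) and Tm6sf1 (0.893). For Cd163 they were Ccl8 (0.927), Gfpt2 (0.896) and Nxpe5 (0.89), and for Retnla Ccl11 (0.841), Nxpe5 (0.83) and Ccl8 (0.829), so that Ccl8, a chemokine, and Nxpe5 stood in both. For Chil3 they included Cacna1b (0.879) and the arginine carrier Slc7a2 (0.839). For Trem2 they were the Fc receptor gene Fcgr3 (0.923) and the complement receptors C3ar1 (0.922) and C5ar1 (0.914). For Spp1 they were Gm26947 (0.872), Gramd1b (0.87) and Ctla2b (0.864), and for Apoe Rassf4 (0.952), C1qa (0.933) and C1qb (0.928). Cd48, a surface protein of blood cells, came after C1qb and C1qc for C1qa (0.97).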

How the data were processed

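RNA of 24 BURP tumors was analysed. Per the labels and methods, ribosomal RNA was removed with a RiboErase kit, reads were made with CASAVA 1.8.2 and aligned with STAR 2.6.0a to GRCm38, and RSEM 1.3.1 gave estimated counts per gene, which the authors deposited with no normalization or filter stated. As deposited, 12.5% of the estimated counts were not whole, and they were rounded. Line came from the sample titles, and sex and subtype of a line from the study's methods. Symbols were matched for 53274 gene identifiers.

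Genes were filtered with filterByExpr and tested with edgeR 4.0.16 in R 4.3.3 (TMM, glmQLFit, glmQLFTest, two-sided, Benjamini-Hochberg over all genes tested in a contrast). Only the groups compared entered a fit. Log2 CPM used a prior count of 2, and descriptions log2(CPM + 0.1). DESeq2 1.42.0 size factors and test, other filters, 1 fit over all tumors and leaving out tumors or lines were alternatives. The SE of a log2 fold change was its size over the root of the F statistic. A fit with a macrophage score as covariate was added after seeing the data. The fits were tested on simulated data. The members and the 18 lists were chosen with earlier results of these data known. Named were every member, in each list the 2 genes of highest level and up to 3 with the most calls, and the 3 genes most like each member, with Arg2, Chil4, Csf1r, Adgre1 and Krt5 added after their values were seen. Some genes that this rule names are not reported here. Tumors of a line are allografts of 1 line, and the fits treated them as independent. In the main contrasts with Ba/Sq and between the sexes, tumors of several lines formed 1 group with no term for line. Those p-values therefore rest on the spread between lines as well as within them. Between the stroma-rich and the neuroendocrine-like line, and in the F test among lines, p-values measure the spread between tumors of a line only. Floors cover counting error only.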

Additional observations from a re-analysis of the deposited data

Results flagged for a closer look

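Among the 9 male and the 9 female Ba/Sq tumors, 20 groups of values (10 genes in each sex) were screened for a highest or lowest tumor standing far from the rest on the CPM scale, by Dixon's ratio of the gap to the range. The ratio flags about 1 in 20 groups by chance only where values are independent and normally spread. Here tumors share lines, some genes vary together and levels were on the CPM scale, so that rate does not apply. Whether the flags exceed chance was therefore not tested. In all, 7 values were flagged, all of them high. They were Arg1 at 1901 CPM in BURP-17BaSq C165-M30, where the next male tumor had 666 CPM, Cd163 at 64.7 CPM, Trem2 at 8.35 CPM and Apoe at 606 CPM in BURP-17BaSq C152-M1, where the next male tumors had 22.8, 4.38 and 290 CPM, and Mrc1 at 60.4 CPM, Spp1 at 278 CPM and Apoe at 558 CPM in BURP-25BaSq C102-M30, where the next female tumors had 30.2, 101.7 and 283 CPM. C102-M30 is the tumor in which 61.9% of the counts fell on 1 ribosomal RNA gene.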

How the results depend on the processing

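No paired analysis was possible because the labels give tumor names and not replicate numbers shared between lines. Of the values of a whole comparison 35 moved and 218 did not. The cause was not tested. With at least 10 counts in every tumor, which leaves 5 members to test in each, 2001 genes and 1 member were called in BURP-19NE against Ba/Sq, 1594 genes and 1 member in BURP-16SR against Ba/Sq, 191 genes between the sexes and 1 member among the lines. With 1 fit over all 24 tumors 4 members were called in BURP-16SR (Arg1 −1.84, adjusted p = 0.0139, and Mrc1 1.97, 0.0402, added), 1473 genes between the sexes and 5 members among the lines, and Mrc1 in BURP-19NE (0.345) and Retnla in BURP-16SR (0.383) changed sign. That fit held the BURP-24BaSq tumors, whose Arg1 was used in choosing the genes. DESeq2 called 768 genes and 1 member between the sexes and 5 members among the lines, and gave Retnla 0.414 in BURP-16SR. It also called Retnla in BURP-19NE against Ba/Sq (−4.52, adjusted p = 0.0281). With the macrophage score as a covariate, chosen after seeing the data, 213 genes were called between the sexes and 5 members among the lines, and C1qa and Apoe changed sign in BURP-16SR against Ba/Sq (−0.11 and −0.006), against BURP-19NE (−0.402 and −0.405) and between the sexes (0.115 and 0.012). Between the sexes, 225 genes were called and Arg1 was at 0.561 without BURP-24BaSq, 865 genes and 1 member without BURP-12BaSq (C1qa 0.02), and 1196 genes and 1 member without BURP-17BaSq. Chil3 was at −0.899 without BURP-18BaSq, and with counts summed per line 0 genes were called, with C1qa at 0.056 and Apoe at 0.192. Leaving out 1 tumor at a time gave 3527 to 5314 genes and 1 to 3 members in BURP-19NE against Ba/Sq, 2670 to 4346 and 1 to 2 in BURP-16SR against Ba/Sq, 2845 to 5545 and 4 to 10 between these lines, 287 to 557 and 0 between the sexes, and 4957 to 9640 and 0 to 4 among the lines. Values whose sign changed when 1 tumor was left out ranged from −0.483 to 0.193 for Mrc1, −0.015 to 0.196 for Trem2, −0.323 to 0.135 for Spp1, −0.036 to 0.252 for C1qa and −0.048 to 0.346 for Apoe in BURP-19NE, from −0.023 to 1.156 for Apoe in BURP-16SR against Ba/Sq, and from −0.057 to 1.14 for C1qa and −0.189 to 1.079 for Apoe against BURP-19NE. The share of Arg1 in the M2-like sum of BURP-24BaSq was 99.31% per kilobase, 82.53% over all 10 genes and 98.48 to 98.71% without 1 tumor. Retnla had a count in 17 of the 24 tumors and Chil3 in 23, so that their levels rest on few counts in many tumors.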
